A study of Mus musculus with 6 samples.

Results

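Integrins are the receptors by which cells hold on to extracellular matrix and to each other, and talins, kindlins and integrin-linked kinase are the cytoplasmic proteins that bind their beta tails. Transcripts of 32 such genes were examined in the endothelium of blood vessels (VECs) and of lymphatic vessels (LECs), both from mouse small intestine. They comprised 18 alpha subunits, 8 beta subunits, Tln1 and Tln2, the kindlin genes Fermt1, Fermt2 and Fermt3, and Ilk, chosen by name as a gene family. All 32 had a probe on the array, among 22911 genes that could be named. VECs had been sorted as CD45-negative, CD31-positive, CD90-negative cells and LECs as CD45-negative, CD31-positive, CD90-positive cells, with up to 10000 cells per sample, and RNA of 3 samples of each was labeled with Cy3 and hybridized to one-color Agilent arrays. Samples were VEC 2, 3 and 4 and LEC 6, 7 and 8. All were from small intestines of females, while strain and age are not given for the array samples in the sources used here. The methods removed Peyer's patches before cells were isolated. The description field of the LEC samples speaks of VECs, while their titles and source names say LECs. The titles were followed. Whether replicate samples came from different animals is not given in the sources used here, so the p-values measure the spread between these samples, which may be technical.

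An integrin is a pair of an alpha and a beta subunit, and the pair sets what it binds. Collagens, laminins, proteins with an Arg-Gly-Asp (RGD) motif such as fibronectin, and adhesion molecules on other cells are each recognized by different pairs. Talin binding to the beta tail, helped by kindlins, switches the receptor to its active shape, and integrin-linked kinase (ILK), which is a scaffold rather than a working kinase, joins the tail to actin. In blood vessels integrins anchor the endothelium to its basement membrane. In lymphatic vessels, whose capillaries have little basement membrane, alpha 9 beta 1 is known for its part in valve formation.

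The 6 arrays held 56605 non-control probes, of which 30930 to 35509 per array carried the scanner software's flag for a signal well above background, called detected from here on. No spot was saturated. Values below are normalized log2 signals, the log2 intensity minus the 75th percentile of the array, so that 0 is the 75th percentile. Levels of different genes come from different probes and are not compared. All 7 lymphatic markers were higher in LECs and all 7 blood vascular markers were lower. Of 7 pan-endothelial markers 6 were lower in LECs. Among the sort markers, Thy1 (CD90) in LECs was 1319-fold that in VECs (adjusted p = 8.0e-07 by limma), Pecam1 (CD31) was 2.68-fold lower (adjusted p = 7.5e-05), and Ptprc (CD45), detected on 2 VEC and 2 LEC arrays, was not tested. The arrays lay on a single slide, with VEC 2, 3 and 4 and LEC 6 in the upper row and LEC 7 and 8 in the lower.

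Of the 32 genes, 22 were tested, because a probe was detected throughout VECs, throughout LECs, or in both. Expression of 4 was higher in LECs (Itga8, Itga9, Itgav and Itgb3), that of 10 was lower (Itga1, Itga2, Itga3, Itga5, Itga6, Itgam, Itgb4, Itgb5, Itgb7 and Fermt2), and 8 did not pass (limma, Benjamini-Hochberg adjusted p under 0.05 over all probes tested). The higher genes were 18.2% of those tested, beside 34.9% of the 14972 genes tested on the array. The lower genes were 45.5%, beside 32%. Passing the test was thus about as common here as on the whole array, with 63.6% against 67.0%. The differences were larger. Their median size was 1.20 on the log2 scale against 0.46 over all genes, and 7 genes, or 31.8%, passed the test with at least a 4-fold difference, against 12.1% of all genes. The 4-fold limit was chosen after the values were seen. Itga2 and Itgb7 entered the test through VECs alone and Itgax through LECs alone. With the test limited to probes detected on all 6 arrays, 4 were higher and 8 lower. In bulk RNA of this kind, fewer cells with a transcript and less of it per cell cannot be told apart.

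**Figure D1:**
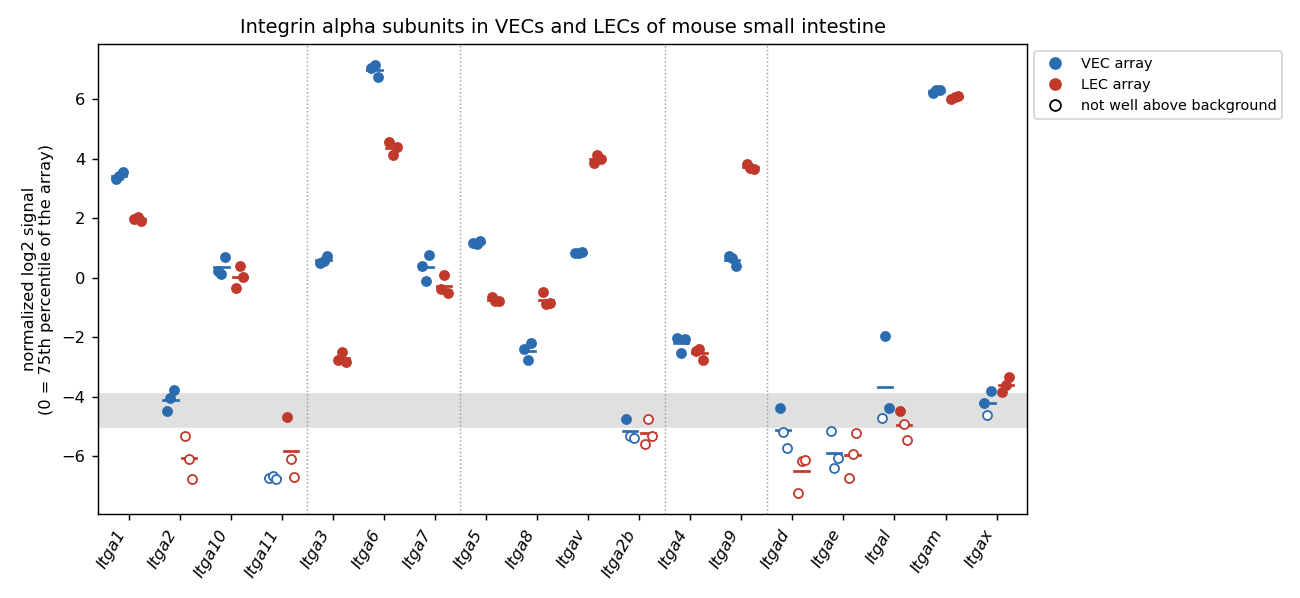
Normalized log2 signal (y axis, 0 is the array's 75th percentile) of the 18 integrin alpha genes on each of the 3 VEC arrays (blue) and 3 LEC arrays (red), with the group mean as a line. From left to right, dotted lines separate collagen receptors, laminin receptors, RGD receptors, the alpha 4 and 9 pair and leukocyte subunits. Open points were not detected on that array, and the gray band spans the lowest detected signals of the 6 arrays, -5.03 to -3.92. LECs lie above VECs for Itgav, Itga8 and Itga9 and below them for Itga1, Itga3, Itga5 and Itga6.

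The collagen receptor subunits were lower in LECs where they differed. Itga1, whose product pairs with beta 1 and binds collagens including the basement membrane type IV, read 3.31, 3.41 and 3.55 in VEC 2, 3 and 4 and 1.99, 2.03 and 1.91 in LEC 6, 7 and 8. The groups did not overlap, and the level in LECs was 2.72-fold lower (log2 difference -1.44, SE 0.0830, adjusted p = 2.8e-05). A second Itga1 probe was lower by less, with -0.96 (adjusted p = 1.1e-04). Itga2, another collagen receptor subunit known from platelets and epithelium, was dim. It read -4.47, -4.03 and -3.79 in VECs and -5.32, -6.08 and -6.77 in LECs, where no array detected it. The difference was at least 1.31-fold (adjusted p = 0.0051), and with signals raised to the lowest one detected on the array it no longer passed (log2 difference -0.39, adjusted p = 0.31). On LEC 6 alone against the VECs, which is what blocking on slide row compares, its difference was -1.22. Itga10, a receptor subunit best known from cartilage, had overlapping groups of 0.22, 0.14 and 0.70 in VECs and -0.34, 0.38 and 0.02 in LECs. Its difference of -0.33 had a 95% interval from -0.89 to 0.23 (adjusted p = 0.25). Itga11, the fibroblast collagen receptor subunit, was detected on LEC 6 only and was not tested.

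The laminin receptors gave some of the largest differences. Itga6, a subunit that pairs with beta 1 or beta 4, read 7.06, 7.14 and 6.74 in VECs and 4.58, 4.13 and 4.41 in LECs. It was 6.10-fold lower in LECs (log2 difference -2.61, SE 0.156, adjusted p = 3.3e-05). Its other probes were lower as well, with differences of -2.51 and -3.02. Itgb4, the partner of alpha 6 in hemidesmosome-type adhesions, which has a long cytoplasmic tail that links to keratin or vimentin through plectin, read 4.54, 4.55 and 4.67 in VECs and 0.68, 1.12 and 0.70 in LECs. At 13.5-fold lower in LECs it had the largest fold difference of the 22 tested genes (log2 difference -3.75, SE 0.133, adjusted p = 4.2e-06). Both subunits of alpha 6 beta 4 were therefore lower, and in neither did any LEC array reach a VEC array. Itga3, which also pairs with beta 1 to bind laminins, read 0.50, 0.55 and 0.72 in VECs and -2.78, -2.51 and -2.84 in LECs. The difference was 9.89-fold by this probe (log2 -3.31, SE 0.113, adjusted p = 3.8e-06) and 2.20-fold by a dimmer second one (-1.14, adjusted p = 1.2e-04), so the direction held and the size did not. Itga7, the laminin receptor subunit of muscle, had overlapping groups, with 0.38, -0.10 and 0.78 in VECs and -0.38, 0.08 and -0.51 in LECs (difference -0.62, 95% interval -1.26 to 0.02, adjusted p = 0.08). It passed when VEC 3 was left out (-0.85, adjusted p = 0.026), with normexp background correction (adjusted p = 0.023) and with an intensity trend (adjusted p = 0.045).

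The RGD receptor subunits went in opposite directions. Itgav, which pairs with beta 1, 3, 5, 6 or 8 and binds vitronectin, fibronectin and the latent form of TGF-beta, read 0.84, 0.82 and 0.87 in VECs and 3.86, 4.11 and 3.98 in LECs. It was 8.83-fold higher in LECs, with a log2 difference of 3.14 (SE 0.0797, adjusted p = 1.3e-06). Itga8, the nephronectin receptor subunit known from mesenchymal and smooth muscle cells, read -2.40, -2.76 and -2.18 in VECs and -0.48, -0.87 and -0.85 in LECs, and was 3.28-fold higher in LECs (SE 0.182 on the log2 scale, adjusted p = 3.8e-04). Itga5, the main fibronectin receptor subunit, was instead lower in LECs. Its values were 1.18, 1.15 and 1.25 in VECs and -0.66, -0.79 and -0.78 in LECs, a 3.83-fold difference (log2 -1.94, SE 0.0680, adjusted p = 4.1e-06). Itga2b, the platelet fibrinogen receptor subunit, was detected on VEC 2 only and was not tested.

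Alpha 4 and alpha 9 form a subfamily of their own, and only alpha 9 passed the test. Itga9 read 0.74, 0.67 and 0.38 in VECs and 3.84, 3.69 and 3.65 in LECs, and was 8.78-fold higher in LECs (log2 difference 3.13, SE 0.116, adjusted p = 5.0e-06). A second probe gave 2.76 (adjusted p = 1.6e-05). Itga4, a subunit carried by many leukocytes, had overlapping groups with -2.04, -2.53 and -2.05 in VECs and -2.46, -2.40 and -2.75 in LECs. The difference of -0.33 had a 95% interval from -0.74 to 0.08 (adjusted p = 0.13) and passed only when VEC 3 was left out (-0.49, adjusted p = 0.025).

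**Figure D2:**
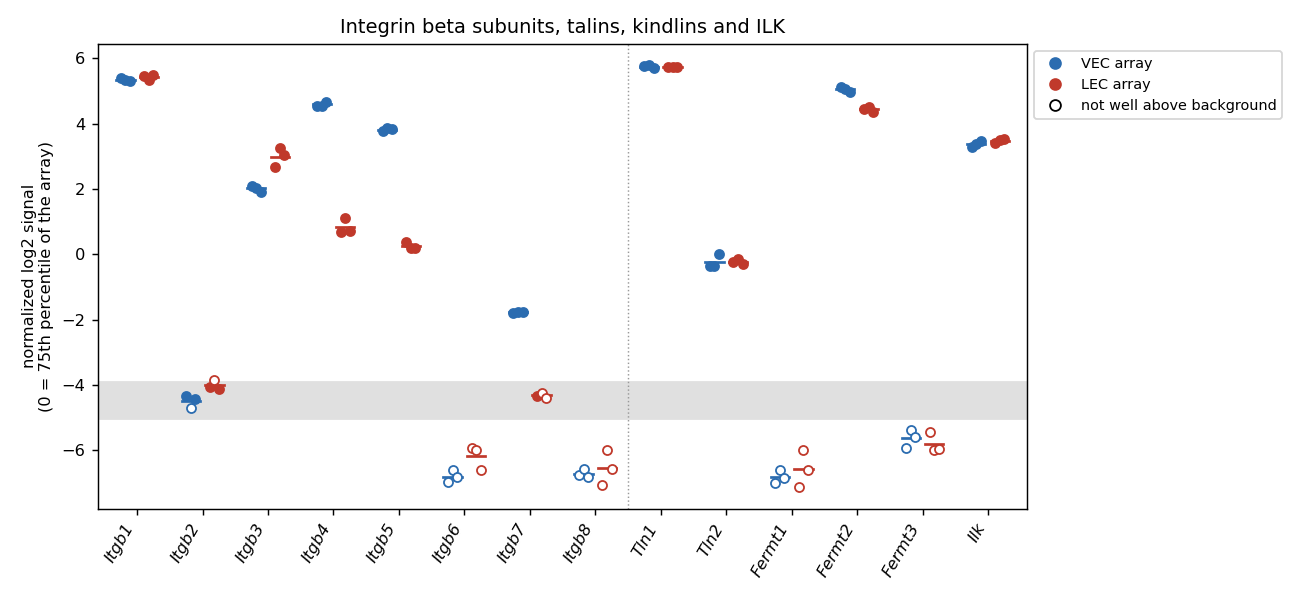
Normalized log2 signal (y axis, 0 is the array's 75th percentile) of the 8 integrin beta genes and, right of the dotted line, of the talin and kindlin genes and Ilk, on each of the 3 VEC arrays (blue) and 3 LEC arrays (red), with group means as lines. Open points were not detected, and the gray band spans the lowest detected signals. Itgb4, Itgb5 and Itgb7 are lower in LECs, Itgb3 is higher, and the points of Itgb1 and Tln1 overlap between the groups.

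Beta 1 is the common partner, found in 12 of 24 heterodimers listed from textbook knowledge, and it did not differ detectably. Itgb1 read 5.40, 5.34 and 5.30 in VECs and 5.47, 5.33 and 5.48 in LECs, with overlapping groups. Its difference of 0.08 had a 95% interval from -0.10 to 0.25 (adjusted p = 0.37), and a second probe gave -0.06. The partners of alpha v did differ. Itgb3 read 2.10, 2.04 and 1.91 in VECs and 2.66, 3.26 and 3.03 in LECs, and was 1.95-fold higher in LECs (log2 difference 0.97, SE 0.158, adjusted p = 0.0025). LEC 6, the LEC array in the upper row of the slide, was the lowest of the LEC arrays, and on its own it stood 0.64 above the VEC mean. A second Itgb3 probe gave 0.69 (adjusted p = 0.013). Itgb5, which pairs with alpha v only and binds vitronectin, went the other way, with 3.76, 3.85 and 3.83 in VECs and 0.36, 0.18 and 0.20 in LECs. It was 11.8-fold lower in LECs (log2 difference -3.57, SE 0.0742, adjusted p = 7.6e-07). Itgb6 and Itgb8, the partners of alpha v best known for activating latent TGF-beta, were detected on no array.

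Beta 7 and beta 2 belong mainly to leukocytes. Itgb7 read -1.79, -1.77 and -1.78 in VECs and -4.33, -4.24 and -4.39 in LECs, of which only LEC 6 was detected. VECs were at least 5.40-fold higher (log2 difference -2.54, adjusted p = 1.4e-06). With normexp background correction the log2 difference was -1.11 and still passed. Itgb2, the partner of the leukocyte alpha subunits, was detected on 2 arrays per group, at -4.34, -4.72 and -4.42 in VECs and -4.05, -3.86 and -4.12 in LECs, and was not tested. Itgam, the CD11b subunit of macrophages and granulocytes, read 6.21, 6.32 and 6.30 in VECs and 6.01, 6.06 and 6.11 in LECs. The groups did not overlap, but the difference was 1.16-fold (log2 -0.22, SE 0.0659, adjusted p = 0.028). It no longer passed under quantile normalization (-0.05), without a filter on dim probes, or without any of VEC 3, VEC 4, LEC 6 and LEC 7. The difference was 0.01 without scaling between arrays, and -0.27 for LEC 6 alone against the VECs. A second Itgam probe, at -3.62, -3.86 and -3.91 in VECs and -4.43, -4.10 and -3.91 in LECs, gave -0.35 (adjusted p = 0.092). The signals of these probes lie so far apart that it is unsettled which of them reads the Itgam transcript. Itgax, the CD11c subunit of dendritic cells, read -4.22, -4.60 and -3.80 in VECs and -3.85, -3.62 and -3.32 in LECs (difference 0.61, 95% interval 0.04 to 1.18, adjusted p = 0.061). It passed under quantile normalization (adjusted p = 0.047), without scaling between arrays (adjusted p = 0.027) and without VEC 4 (adjusted p = 0.02). For LEC 6 alone against the VECs the difference was 0.36. Itgal, the subunit of the lymphocyte receptor LFA-1, was detected on VEC 3, VEC 4 and LEC 6, with -1.95 in VEC 3 and -4.93 to -4.39 on the other arrays except LEC 8 at -5.45. Itgad was detected on VEC 2 only, and Itgae, the CD103 subunit of intraepithelial lymphocytes, on no array. None of these was tested.

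Among the talins, kindlins and Ilk, Fermt2 passed the test and Tln1, Tln2 and Ilk did not. Tln1, the talin present in all cells, read 5.76, 5.79 and 5.69 in VECs and 5.74, 5.72 and 5.74 in LECs, a difference of -0.02 with a 95% interval from -0.16 to 0.13 (adjusted p = 0.81). Tln2, the second talin, read -0.36, -0.35 and 0.01 in VECs and -0.23, -0.15 and -0.29 in LECs, a difference of 0.01 (95% interval -0.28 to 0.30, adjusted p = 0.94). A dimmer Tln2 probe was lower in LECs by 0.21 on the log2 scale and passed (difference -0.21, adjusted p = 0.019), so the probes of this gene disagree. Fermt2, the kindlin-2 gene and the kindlin of most non-blood cells, read 5.11, 5.07 and 4.98 in VECs and 4.46, 4.52 and 4.35 in LECs. It was 1.53-fold lower in LECs (log2 difference -0.61, SE 0.0741, adjusted p = 6.9e-04), with no overlap. Fermt1, the epithelial kindlin, and Fermt3, that of blood cells, were detected on no array. Ilk read 3.29, 3.38 and 3.46 in VECs and 3.42, 3.49 and 3.52 in LECs, with overlapping groups. Its difference of 0.10 had a 95% interval from -0.08 to 0.27 (adjusted p = 0.27), and it passed with normexp background correction only (0.16, adjusted p = 0.044).

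**Figure D3:**
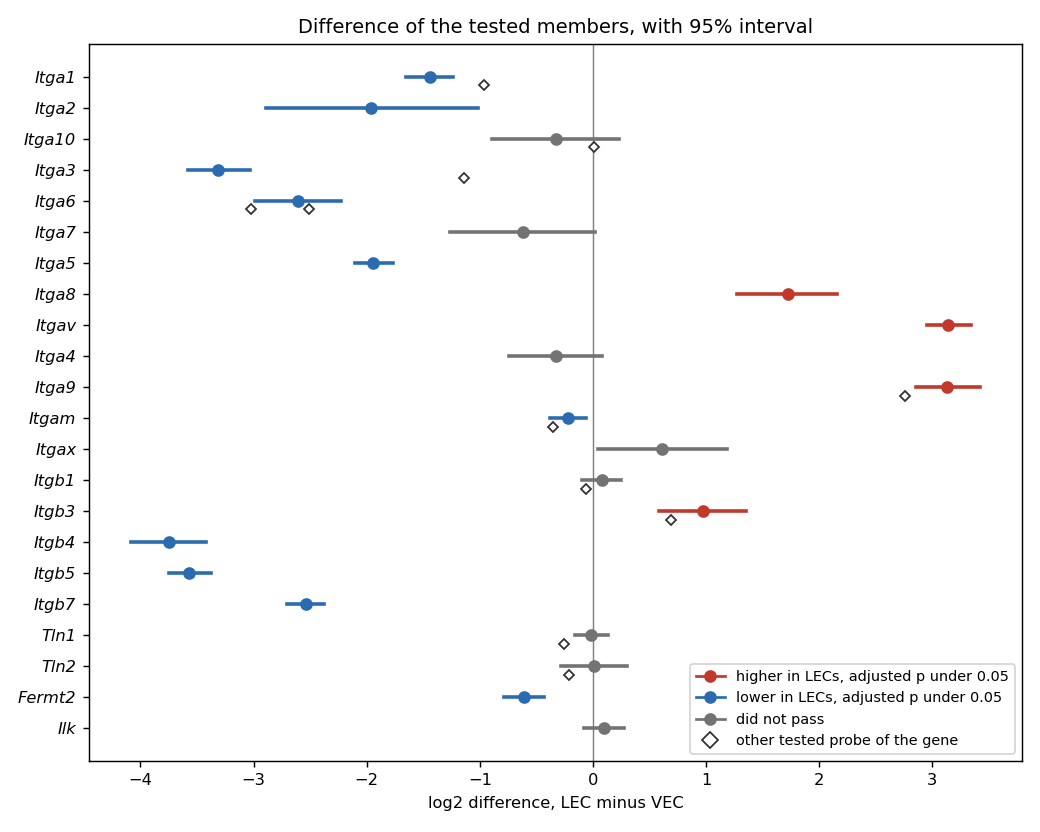
Log2 difference, LEC minus VEC (x axis), of the 22 tested genes, each by the brightest of its tested probes on average, with the 95% interval of the limma fit as a bar. Red genes were higher in LECs, blue genes lower, gray genes did not pass, and open diamonds are the other tested probes of the gene. Intervals of Itgb1, Tln1, Tln2, Ilk, Itga4, Itga7 and Itga10 include 0, while Itgav and Itga9 lie at 3.14 and 3.13 and Itgb4 at -3.75.

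Read as receptor pairs, both subunit transcripts were detected on all arrays for 15 of the 24 heterodimers in VECs and for 13 in LECs. The pairs were listed after the values were seen, and transcripts of both subunits do not show that the receptor is assembled. The 13 in LECs were also among those of VECs, and the pairs that met this rule in VECs alone were alpha 2 beta 1 and alpha 4 beta 7. That rests on Itga2, dim in both groups, and on Itgb7, detected in LECs on LEC 6 only, so absence from LECs is not shown. Alpha v beta 3 was the 1 pair with both subunits higher in LECs, and alpha 6 beta 4 the 1 pair with both lower. Alpha v beta 5 was the 1 pair whose subunits differed in opposite directions. Among the pairs with beta 1, which did not differ detectably, alpha 1, 2, 3, 5 and 6 were lower in LECs and alpha 8, 9 and v were higher.

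Start-site sequences are shown for Itgav and Itgb5, the subunits of one receptor that differed in opposite directions, and for Itga3 and Itga5, which were lower in LECs. Each is the 300-base window, 250 before to 50 after the annotated transcription start, of RefSeq on GRCm38.p6, matched by symbol and printed 5′ to 3′ on the gene's strand. Such a window was at hand for 23 of the 32 genes. Capitals mark the letters GGGCGG (the GC box, bound by SP1-type factors) and CGGAA (the core of ETS-family sites) on either strand, so that the reverse strand reads CCGCCC and TTCCG.
Itgav, chr2:83724147-83724446, plus strand: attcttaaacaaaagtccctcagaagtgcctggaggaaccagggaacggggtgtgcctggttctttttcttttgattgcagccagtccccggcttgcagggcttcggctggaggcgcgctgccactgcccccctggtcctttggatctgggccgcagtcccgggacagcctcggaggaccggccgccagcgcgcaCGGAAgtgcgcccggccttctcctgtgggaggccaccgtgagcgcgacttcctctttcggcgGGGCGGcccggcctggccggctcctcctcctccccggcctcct
Itgb5, chr16:33829415-33829714, plus strand: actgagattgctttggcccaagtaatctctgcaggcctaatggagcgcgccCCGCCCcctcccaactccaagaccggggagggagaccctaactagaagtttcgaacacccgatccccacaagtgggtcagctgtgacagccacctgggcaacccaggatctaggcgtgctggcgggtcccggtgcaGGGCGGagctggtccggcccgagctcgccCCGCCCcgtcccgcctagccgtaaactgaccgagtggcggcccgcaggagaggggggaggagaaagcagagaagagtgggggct
Itga3, chr11:95076665-95076964, minus strand: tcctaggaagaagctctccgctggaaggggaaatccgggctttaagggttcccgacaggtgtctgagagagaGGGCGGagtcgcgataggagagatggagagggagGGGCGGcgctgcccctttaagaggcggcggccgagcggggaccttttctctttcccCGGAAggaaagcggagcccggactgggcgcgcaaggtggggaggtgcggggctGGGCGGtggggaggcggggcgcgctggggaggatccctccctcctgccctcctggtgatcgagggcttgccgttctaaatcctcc
Itga5, chr15:103366742-103367041, minus strand: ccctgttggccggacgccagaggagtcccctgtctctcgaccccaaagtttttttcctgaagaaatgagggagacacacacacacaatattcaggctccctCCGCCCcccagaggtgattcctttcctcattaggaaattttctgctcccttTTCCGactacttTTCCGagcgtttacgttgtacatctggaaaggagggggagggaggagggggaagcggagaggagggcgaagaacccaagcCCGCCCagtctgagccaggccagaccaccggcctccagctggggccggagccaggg

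The Itgav window, whose annotated transcription start lies 2094 bases inside the gene's outermost start, held 1 GC box and 1 ETS core. That of Itgb5 held 3 GC boxes and no ETS core, the printed one of Itga3 held 3 GC boxes and 1 ETS core, and that of Itga5 held 2 of each. Itga3 has another window, not printed, whose start lies 7646 bases inside the outermost one. It held 1 GC box and no ETS core, with a GC content of 52.3%. Over all 26 windows of these genes, 12 held the GC box and 9 the ETS core, against 35.7% and 29.9% of the 32851 windows of the same length in the table. The GC content was 67.3%, 65.7%, 66.7% and 58.7% in the order printed, against a median of 52.7% over all windows. The printed windows are examples and do not stand for the others. Those of Itga1 and Itgb7, both lower in LECs, and of Itga8, higher in LECs, held neither motif. Their GC content was 56.7%, 56.3% and 59% in that order. A match describes the sequence only. The only window of Itga9 has its annotated transcription start 104983 bases inside the gene and is not printed.

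Transcripts of the proteins that join integrins to actin and to signaling differed in both directions. Of 32 adhesion complex partners, all tested, 9 were higher in LECs, 18 lower and 5 did not pass, with a median difference of -0.32 against 0.02 over all genes. The higher ones were 28.1% of the list and the lower ones 56.2%, beside 34.9% and 32% of all genes tested. Without scaling between arrays, which moved the median of all genes to 0.24, 10 were lower. The PINCH genes, whose products bind ILK, changed in opposite directions. Lims1 (PINCH-1) read 2.86, 2.79 and 2.67 in VECs and 4.59, 4.48 and 4.53 in LECs, 3.38-fold higher in LECs (adjusted p = 8.8e-06). Lims2 (PINCH-2) read 5.97, 6.01 and 6.06 in VECs and 0.98, 1.64 and 1.06 in LECs, 27.6-fold lower in LECs (adjusted p = 5.3e-06). No LEC array overlapped a VEC array for either gene. The scaffold gene Pxn (paxillin) was 2.40-fold higher (adjusted p = 1.3e-05), and the kinase gene Src at least 2.50-fold higher, by a probe undetected on every VEC array (adjusted p = 0.0056). Src thus entered the test through LECs alone, and another Src probe was detected on no array of either group. On the lower side were Ptk2b (PYK2, a kinase related to FAK), 4.10-fold (adjusted p = 6.5e-05), and Slc3a2 (CD98hc, which binds beta tails and carries amino acid transporters), 3.84-fold (adjusted p = 9.4e-06). The probes of Slc3a2 disagree, since a second one had overlapping groups and a difference of -0.19 (adjusted p = 0.2), and a second Pxn probe was higher by less, 1.46-fold (adjusted p = 0.0034).

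Of the 18 genes listed as regulators of integrin activity, 17 were tested, and Apbb1ip (RIAM), which brings talin to the membrane, was not. Expression of 5 was higher in LECs, that of 6 lower, and 6 did not pass, with a median difference of 0.11. At 29.4% higher and 35.3% lower, the shares were near those of all genes. Without scaling between arrays 9 were higher and 3 lower. Rassf5 (RAPL), an effector of the RAP1 GTPase, read -3.94, -4.12 and -3.74 in VECs and -0.47, -0.27 and -0.26 in LECs, 12.1-fold higher in LECs (adjusted p = 3.2e-06). Raph1 (lamellipodin), a relative of RIAM, was 3.97-fold higher (adjusted p = 1.7e-05) and the endocytic adaptor Dab2 was 1.33-fold higher (adjusted p = 0.0087). The lower genes included Rap1b itself, 2.05-fold (adjusted p = 1.1e-04), and its endothelial effector Rasip1, 2.29-fold (adjusted p = 5.2e-05).

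Among the ligand genes the differences were larger in the median than among the receptors. Of 37, 35 were tested, with 13 higher in LECs, 19 lower and 3 that did not pass. These were 37.1% and 54.3% of those tested, beside 34.9% and 32% of all genes tested. Over all genes 67.0% passed in either direction, a share that the counts in smaller groups below should be read against. Tnc, Postn, Edil3 and Vtn, all higher, entered the test through LECs alone and Npnt, lower, through VECs alone, and with probes detected on all 6 arrays 9 were higher and 18 lower. The median difference was -0.55 and the median size 2.30. The largest differences toward LECs were those of Tgfb3, whose latent form carries an RGD motif, Postn (periostin) and Tnc (tenascin-C). Tgfb3 was 120-fold higher (adjusted p = 5.6e-07). Postn was at least 16.0-fold higher (adjusted p = 7.3e-04) and Tnc at least 14.5-fold (adjusted p = 4.9e-05), both by probes undetected on every VEC array. Other Postn probes gave at least 14.0-fold and at least 5.54-fold, the former detected on 1 VEC array. Toward VECs the largest differences were those of Jam2 (a junctional adhesion molecule), 48.7-fold (adjusted p = 2.1e-06), Lama3 (laminin alpha 3), 36.0-fold (adjusted p = 7.8e-06), and Vwf (von Willebrand factor), 26.4-fold (adjusted p = 3.0e-06). Sorted by the receptor they serve, a grouping made after the values were seen, 5 of 6 laminin chain genes were lower in LECs. The exception was Lama4, 1.72-fold higher (adjusted p = 8.6e-04). Both type IV collagen chains were lower, while both fibrillar collagen genes were higher. For Col1a1 that rests on 1 probe (0.74, adjusted p = 0.021), since a second gave 0.70 and did not pass (adjusted p = 0.051). Of 7 genes for adhesion molecules that leukocyte integrins bind, 6 were lower and F11r did not pass (difference -0.01, adjusted p = 0.92). Among 6 ligands of alpha 9, Fn1 (fibronectin), Emilin1 and Tnc were higher and Vcam1 lower. Svep1 differed by -0.32 (adjusted p = 0.13) and Spp1 was not tested. Of 13 RGD ligand genes, 12 were tested, with 7 higher, 4 lower and 1 that did not pass.

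**Figure D4:**
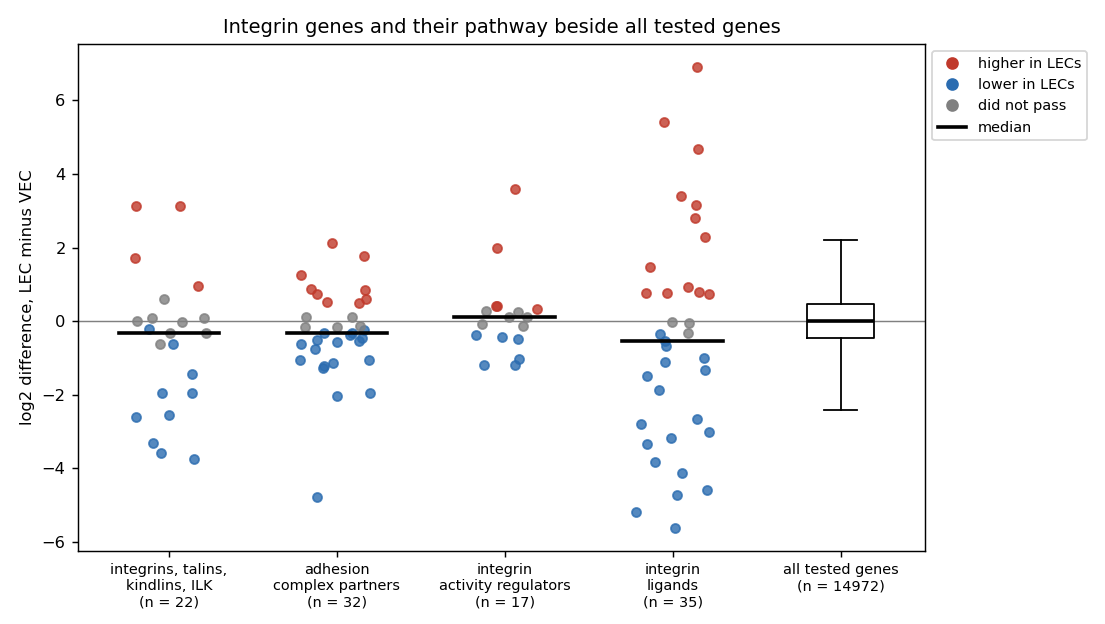
Log2 difference, LEC minus VEC (y axis), of each tested gene among the integrin, talin and kindlin genes with Ilk (n = 22), adhesion complex partners (n = 32), activity regulators (n = 17) and ligands (n = 35), with medians as black lines, beside all 14972 tested genes (box, quartiles; whiskers, 5th to 95th percentile). The medians are -0.33, -0.32, 0.11 and -0.55, against 0.02 for all genes, and the ligands reach from -5.61 to 6.91.

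Many of these genes are also known from cells other than endothelium, so marker lists were set beside them. Summed levels are on the linear scale, as multiples of the array's 75th percentile. Of 9 tested myeloid markers 6 were higher in LECs and 2 lower, with summed levels of 5.19 to 5.68 in VECs and 6.38 to 6.85 in LECs. That is the opposite direction to Itgam, whose call did not hold under all alternatives. Itgax and Itgb2 leaned the same way as these sums. The difference of Itgax was 0.61 and did not pass. Itgb2, which was not tested, had means of -4.49 in VECs and -4.01 in LECs. Of 4 tested lymphoid markers 1 was higher and 3 lower (sums 1.75 to 2.30 and 5.52 to 6.71, the opposite direction to Itgb7), with Cd3g, Ms4a1 and Nkg7 undetected on every array. Of 2 tested platelet markers 1 was higher (0.329 to 0.360 and 0.542 to 0.634), with Gp1ba and Gp9 undetected. Of 5 tested epithelial markers 1 was higher and 2 lower (1.25 to 1.92 and 1.06 to 1.20, the same direction as Itga3, Itga6 and Itgb4), with Krt20 undetected. For smooth muscle and pericytes 3 of 8 were lower and 5 did not pass (39.4 to 47.7 and 27.7 to 36.9, the opposite direction to Itga8). Fibroblast markers were higher for 2 of 3 (0.808 to 1.35 and 1.79 to 2.51), and enteric glia and neuron markers for 5 of 6 (0.982 to 1.22 and 3.29 to 4.12), the same direction as Itgav, Itga8 and Itga9. The part of these other cells in the integrin differences was not tested.

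In 19 alternatives the count of higher genes was 4 or 5 and that of lower genes 8 to 11. The lower slide row held LECs only, and the upper row held LEC 6 beside the 3 VEC arrays, which with 1 LEC array allows no test within it. Blocking on slide row compares LEC 6 alone with the VECs, so only the differences are read from it. In that comparison all 14 genes with a call kept the sign of their difference. Of the 22 genes, Itgb4, Itgb5, Itgav, Itga9, Itga6, Itga5 and Itga1 kept their calls under all 19, with log2 differences from -3.90 to -3.52, -3.62 to -3.34, 3.02 to 3.37, 2.95 to 3.36, -2.73 to -2.38, -1.98 to -1.66 and -1.50 to -1.20 in that order. Itga8 (1.22 to 1.97), Itgb3 (0.64 to 1.19) and Fermt2 (-0.65 to -0.38) did so too. Itga3 kept its call between -3.41 and -2.22, the latter as the mean of its probes.

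**Figure D5:**
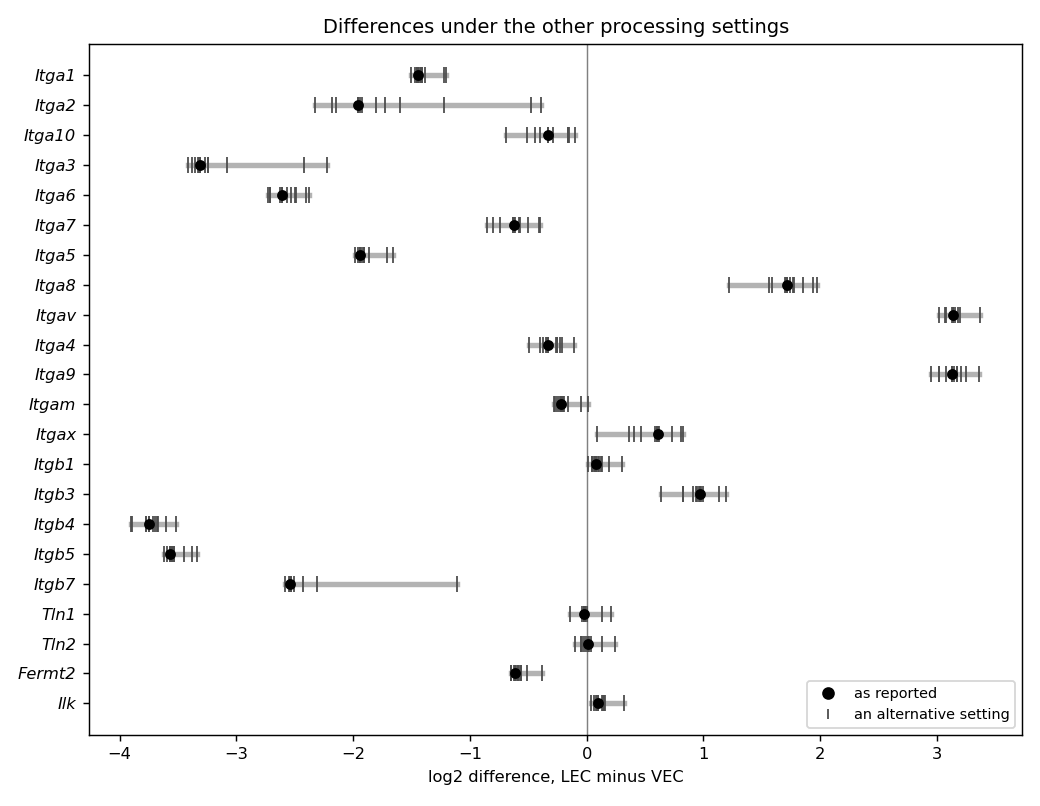
Log2 difference, LEC minus VEC (x axis), of the 22 tested genes as reported (black points) and under each alternative processing setting (ticks), with the gray bar spanning them. Itga2 and Itgb7, dim in LECs, have the widest bars, from -2.33 to -0.39 and from -2.58 to -1.11, and Itgam is the gene with a call whose bar crosses 0.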

How the data were processed

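RNA of 3 VEC and 3 LEC samples was measured on one-color arrays, and samples were grouped by their titles. The authors deposited spot intensities of Agilent Feature Extraction 12.0.3.1, background-subtracted but unscaled. A log2 table deposited beside them equals the log2 intensity minus a constant per array (medians -3.19 to -3.13, no centering of genes) and served as an alternative input. Outlier spots (97 to 122 per array) were dropped, replicate spots were averaged as log2 values, and each array was scaled by subtracting its 75th percentile. A probe was tested if well above background on all 3 arrays of a group, which left 33778 probes, with limma 3.58.1 in R 4.3.3 (lmFit, eBayes), two-sided, adjusted over all of them. The fit was tested on simulated data. Probes were named through RefSeq accessions of GRCm38.p6, and 32994 of 56605 had a name. The start-site windows and their distances inside the gene also came from RefSeq on GRCm38.p6. The brightest tested probe on average stood for a gene. Where the dimmer group was not well above background on all arrays, the fold is a lower bound, set against the lowest signal well above background of each array. The number of arrays, 3 per group, limits the precision, as does background for dim probes, the lowest detected signals being 12.1 to 25.1 intensity units. The members and gene lists were chosen with earlier results of these data known. From each pathway list up to 3 genes per direction with the largest differences were named, besides those said to be chosen after their values were seen. One gene that this rule selects is not reported here. Alternatives were normexp background correction (offset 50, on median signals), other scalings and dim-probe filters, an intensity trend, a floor, the deposited log2 table, keeping outlier spots, the methods' one-way test, averaging the probes of a gene, blocking on slide row, and leaving out each array. The methods name GeneSpring GX and a one-way test, with no settings.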

Additional observations from a re-analysis of the deposited data

How the results depend on the processing

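The counts of higher and lower integrin, talin and kindlin genes stayed within 1.5 times of those reported under all 19 alternatives. Signals without scaling between arrays moved the median difference of all genes from 0.02 to 0.24 and moved 3 counts by 1.5 times or more, to 10 lower adhesion complex partners, 9 higher regulators and 3 lower regulators, and turned the difference of Itgam to 0.01 (adjusted p = 0.95). With each array left out in turn, 4 to 5 of the genes were higher and 9 to 11 lower. Single genes whose calls changed are Itga2 (lost with a floor), Itgam, and Itga4, Itga7, Itgax and Ilk (each gained under 1 to 3), with values beside them above. The call of Itgam was lost under quantile normalization, without a filter on dim probes and with single arrays left out. The cause was not tested. No paired analysis was possible because the labels give VEC and LEC samples no replicate numbers in common. All arrays shared a slide, and the lower slide row held LECs only, so slide row and group are partly confounded. Signal near background limits Itga2, Itgb7, Itgax and the 10 genes that were not tested, for which no statement on a difference is possible at this signal.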
